A study of Mus musculus with 8 samples.

Results

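The 37 genes described here are transcripts of the colon epithelium, read from every library of a study of colon mesenchymal cells. They were chosen as a list by epithelial cell type, with earlier results of these data known. They are 37 of 24346 listed gene symbols. Of these, 13 are expressed across the epithelium, 12 mark colonocytes, 6 mark goblet cells, 4 encode antimicrobial secreted proteins, 1 marks enteroendocrine cells and 1 marks crypt stem cells. Each library was prepared from large intestine cells sorted as gp38+, PDGFRα high, Ly6C negative and lacking CD45, CD31 and EpCAM, so epithelial transcripts were not the target of the sort. One library came from untreated Cxcl12 flox/flox cells (the control library). Another came from untreated Foxl1cre; Cxcl12 flox/flox cells (the knockout library), in which Cre driven by Foxl1 deletes Cxcl12 only in cells that express Foxl1. Both genotypes carry the floxed Cxcl12 alleles. The other 6 libraries came from C57BL/6 cells with 1 mM GABA and 20 mM taurine, 3 at 0 h and 3 at 6 h, and no untreated 6 h library was analysed here. The sources used here give no ages, no number of animals behind a library and no statement on pooling, nor do they say that the 3 libraries of a time point were separate animals or cultures. P-values of the time comparison therefore reflect no more than the spread among these 6 libraries, and that spread may be technical.

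The colon is lined by a single sheet of epithelial cells that is renewed from stem cells in the crypts. Their progeny become absorptive colonocytes, mucus-secreting goblet cells or hormone-secreting enteroendocrine cells, and colonocytes express their mature genes as they near the surface. The mesenchymal cells that were sorted lie directly beneath this sheet. Keratins, claudins and the adhesion protein EpCAM are made by epithelial cells of every class, while carbonic anhydrases, mucins and secreted lectins mark single classes.

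The deposited values are FPKM, which divide a gene's fragments by its transcript length and by the library's mapped total, and are compared between genes as levels per length. Low FPKM values moved in steps of 1 fragment, from which the depth was estimated at 4958000 fragments for the control library, 6221000 for the knockout library and 17020000 to 20670000 for the other 6. Between 72.6% and 82.4% of low genes lay within 0.15 of a whole number of fragments. All fragment numbers given here are such estimates, and the 95% exact intervals of ratios made from them cover counting error only. An interval could be made for 36 members, Muc2 being the exception. The fragment numbers behind the 2 genotype libraries are small for many members: 11 of 37 rested on 10 or fewer fragments in the control library.

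**Figure D1:**
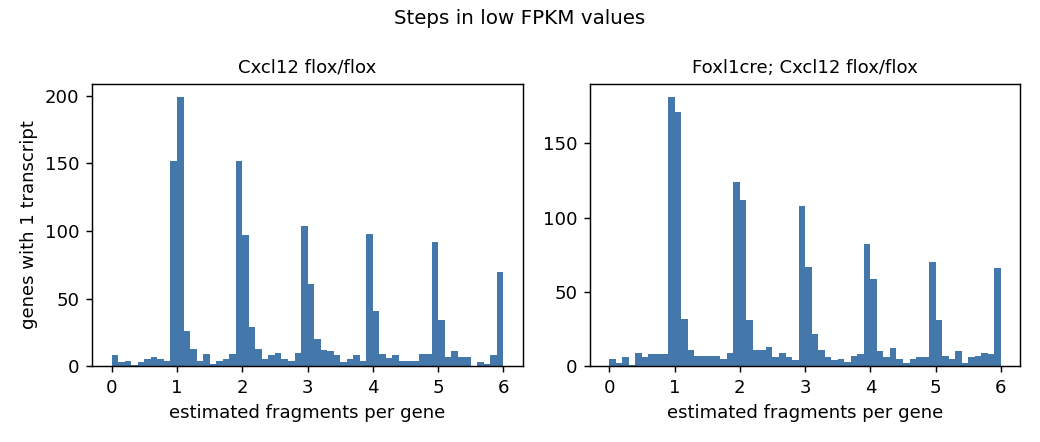
Low FPKM values of genes with 1 transcript, converted to estimated fragments per gene (x axis) and counted (y axis, genes per bin), in the control library (left) and the knockout library (right). The genes pile up at whole numbers from 1 to 6, which is what sets the depth at 4958000 and 6221000 fragments.

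The deletion and the sort were checked first. Cxcl12 was at 1298 FPKM in the control library against 739.7 FPKM in the knockout. Pdgfra stood at 201.8 and 225.7 FPKM, and Pdpn, which encodes gp38, at 96.1 and 91.7 FPKM. Foxl1 was at 10.2 and 11.6 FPKM, but at 0.29 FPKM or less in each of the 6 libraries with GABA and taurine. Transcripts of the excluded surface proteins were present in both genotype libraries. Epcam was at 4.18 and 14.6 FPKM, Ptprc (CD45) at 4.82 and 6.85 FPKM, Pecam1 (CD31) at 4.86 and 2.75 FPKM, and Ly6c1 at 140.9 and 89.6 FPKM.

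The first question is how the epithelial transcripts stood in the knockout library against the control library. With 1 library per genotype there is no replicate check and no test, so each value below describes these libraries. Summed over the 37 genes, the level was 249.2 FPKM in the control library and 1401 FPKM in the knockout, a ratio of 5.62. Of the 37 genes, 32 were higher and 5 lower in the knockout library. Of all 24346 listed genes, 10875 were higher and 10997 lower there. At least 2-fold higher on the log2(FPKM + 1) scale were 21 of 37 members, where 1.19% of all 24346 listed genes passed the same size. At least 2-fold lower were 2 members, Reg3b and Mptx1, where 2% of all listed genes passed. The members' median log2 difference was 1.28, and that of all listed genes was 0. Because the list was chosen with earlier results of these data known, these shares describe it and are no test. Among 129 other epithelial genes, 12 were at least 2-fold higher and 2 lower, with a median of 0.15. Counting error alone gave a ratio interval wholly above 1 for 26 members, wholly below 1 for 2, and including 1 for 8. The same count was not made over all listed genes. Such intervals leave out 1 even for small differences of high genes. The mesenchymal marker Dcn, at a ratio of 1.08, had an interval of 1.07 to 1.097. In bulk libraries, fewer cells of a type and less RNA per cell cannot be told apart.

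**Figure D2:**
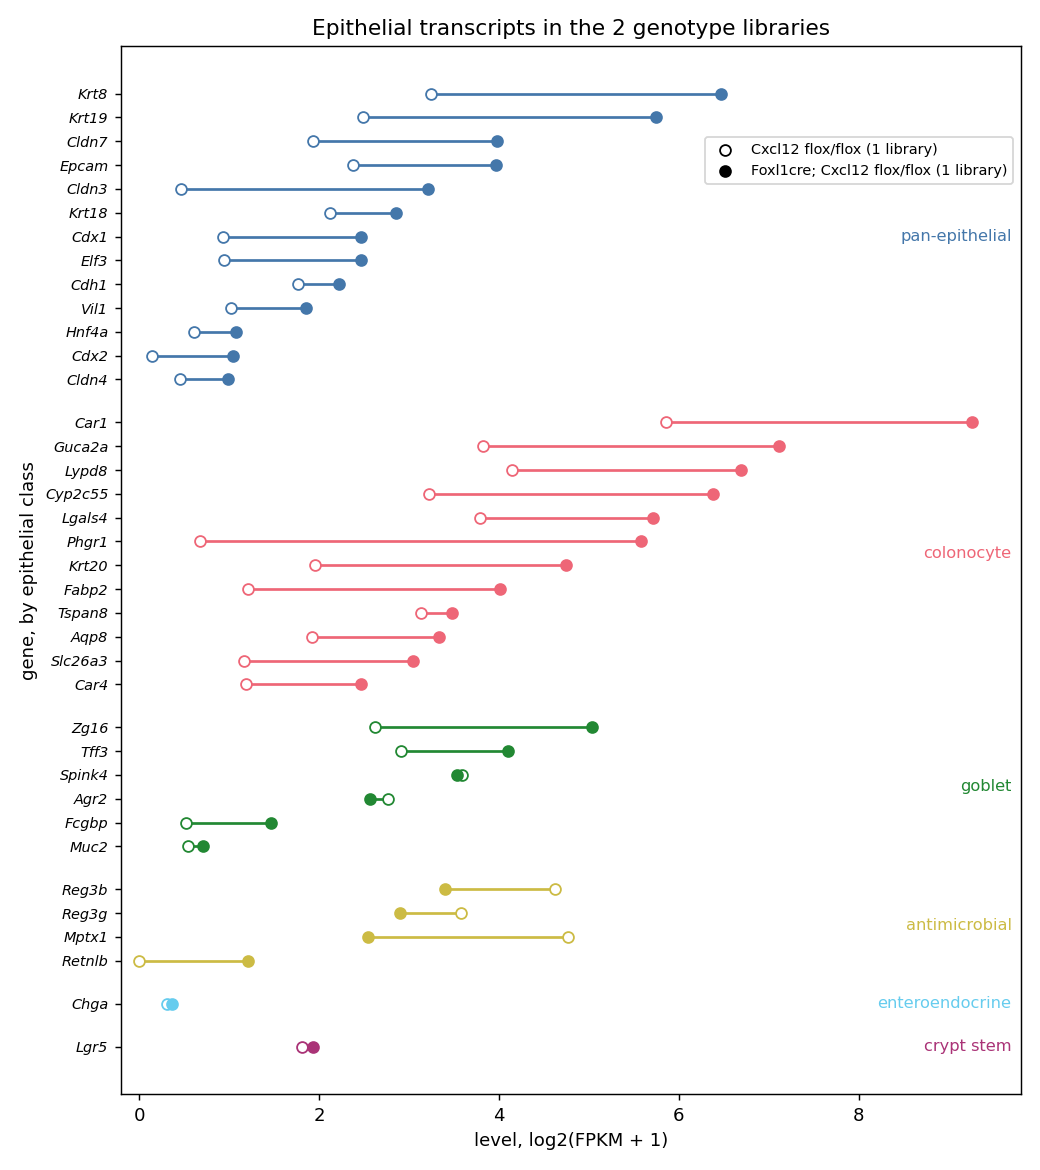
Level of each of the 37 genes, log2(FPKM + 1) on the x axis, in the control library (open circle) and the knockout library (filled circle), by epithelial class and 1 library per genotype. Every pan-epithelial and colonocyte gene is higher in the knockout library, while Reg3b, Reg3g and Mptx1 are lower.

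Among the 13 pan-epithelial genes, all 13 were higher in the knockout library, and 7 passed 2-fold on the log2(FPKM + 1) scale. The median log2 difference of the class was 1.52. Their summed level was 30.02 FPKM in the control library and 203 FPKM in the knockout. The keratins, which build the intermediate filaments of simple epithelia, differed in their ratios. Krt8 stood at 8.46 FPKM in the control library and 87.7 FPKM in the knockout, a ratio of 10.4 (interval 8.15 to 13.3, about 74 and 959 fragments). Krt19 stood at 4.61 and 52.9 FPKM, a ratio of 11.5 (8.07 to 17.3, about 31 and 452 fragments). Krt18, the filament partner of Krt8 and its neighbour on chromosome 15, stood at 3.34 and 6.26 FPKM, a ratio of 1.88 (1.11 to 3.403). The intervals of Krt8 and Krt18 did not overlap, although the proteins pair in filaments. Krt8 lies at chr15:101996698-102004482 on the minus strand and Krt18 at chr15:102028180-102032027 on the plus strand (GRCm38, GENCODE vM21).

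The adhesion and junction genes of the class also differed among themselves. Epcam, the surface protein against which the cells were sorted, stood at 4.18 and 14.6 FPKM, a ratio of 3.5 (2.45 to 5.12, about 38 and 167 fragments). Cdh1, the E-cadherin of adherens junctions, stood at 2.40 and 3.65 FPKM, a ratio of 1.52 (1.08 to 2.199). The claudins are tight junction proteins, and the values of Cldn3 and Cldn4 rested on few fragments. Cldn7 stood at 2.81 and 14.8 FPKM, a ratio of 5.29 (2.89 to 10.2). Cldn3 stood at 0.378 and 8.29 FPKM, about 2 and 55 fragments, and its ratio of 22.0 had an interval of 5.79 to 186. Cldn4, beside Cldn3 on chromosome 5, stood at 0.372 and 0.990 FPKM, about 3 and 10 fragments, and its interval of 0.684 to 15.0 included 1.

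The transcription factors of the class were low in both libraries, and each was higher in the knockout library. Cdx1, a homeobox factor of intestinal identity, stood at 0.902 and 4.53 FPKM, a ratio of 5.02 (2.24 to 13.2). Its relative Cdx2 stood at 0.103 and 1.06 FPKM, about 1 and 14 fragments, a ratio of 10.4 with an interval of 1.70 to 472. Elf3, an ETS factor of epithelia, stood at 0.918 and 4.51 FPKM, a ratio of 4.92 (2.34 to 12.2). The nuclear receptor Hnf4a stood at 0.525 and 1.11 FPKM, a ratio of 2.104 whose interval, 1.02 to 4.66, only just left out 1. Vil1, which bundles the actin of microvilli, stood at 1.02 and 2.61 FPKM, a ratio of 2.55 (1.40 to 4.90).

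The colonocyte genes had the largest class sum in both libraries and the largest median difference of the classes with more than 1 gene. All 12 were higher in the knockout library, and 11 passed 2-fold. The median log2 difference of the class was 2.67. Their summed level was 126.1 FPKM in the control library and 1107 FPKM in the knockout, a ratio of 8.78. Car1, a cytosolic carbonic anhydrase, was the highest of all 37 genes in both libraries, at 57.2 and 614 FPKM. Car1 thus made up much of both class sums. Its ratio of 10.7 was also the most precise, at 9.50 to 12.2 over about 280 and 3770 fragments. Guca2a, the precursor of the peptide guanylin that drives fluid secretion, stood at 13.2 and 137.6 FPKM, a ratio of 10.4 (6.93 to 16.1). Cyp2c55, a cytochrome P450, stood at 8.37 and 82.2 FPKM, a ratio of 9.82 (7.80 to 12.7). Summed with its relatives Cyp2c65 and Cyp2c66, with which it could share reads, the levels were 9.31 and 86.2 FPKM, a ratio of 9.26. Krt20, a keratin of mature surface cells, stood at 2.88 and 25.9 FPKM, a ratio of 8.97 (5.88 to 13.9).

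The other colonocyte genes ranged from the widest ratio among the members to one whose interval included 1. Phgr1, a small protein of the gut epithelium, stood at 0.604 FPKM, about 1 fragment, in the control and 46.8 FPKM, about 100 fragments, in the knockout library. Its ratio of 77.4 had an interval of 13.98 to 3179, so its size is poorly known. Fabp2, a fatty acid carrier, stood at 1.32 and 15.2 FPKM, a ratio of 11.5 (4.70 to 36.4). Lypd8, a secreted and membrane-bound protein that holds flagellated bacteria off the epithelium, stood at 16.7 and 102.7 FPKM, a ratio of 6.15 (4.87 to 7.90). Slc26a3, Car4 and Aqp8, which act at the cell membrane, had ratios from 3.24 to 5.82. Slc26a3, a chloride and bicarbonate exchanger, stood at 1.25 and 7.27 FPKM, a ratio of 5.82 (3.43 to 10.1). The membrane-bound carbonic anhydrase Car4 stood at 1.28 and 4.51 FPKM, a ratio of 3.54 (1.47 to 9.21). The water channel Aqp8 stood at 2.802 and 9.09 FPKM, a ratio of 3.24 (1.88 to 5.68).

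Lgals4, a galectin of the brush border, stood at 12.8 and 51.7 FPKM, a ratio of 4.03 (3.15 to 5.26). Its near copy Lgals6 stood at 0.507 and 12.8 FPKM, and the sources used here do not say how reads were divided between them. Their sum was 13.3 FPKM in the control library and 64.5 FPKM in the knockout, a ratio of 4.84. Tspan8, a tetraspanin of the cell surface, stood at 7.80 and 10.2 FPKM, a ratio of 1.30 with an interval of 0.889 to 1.92. The intervals of Car1, Lgals4 and Tspan8 did not overlap one another, so their differences in ratio were larger than counting error.

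**Figure D3:**
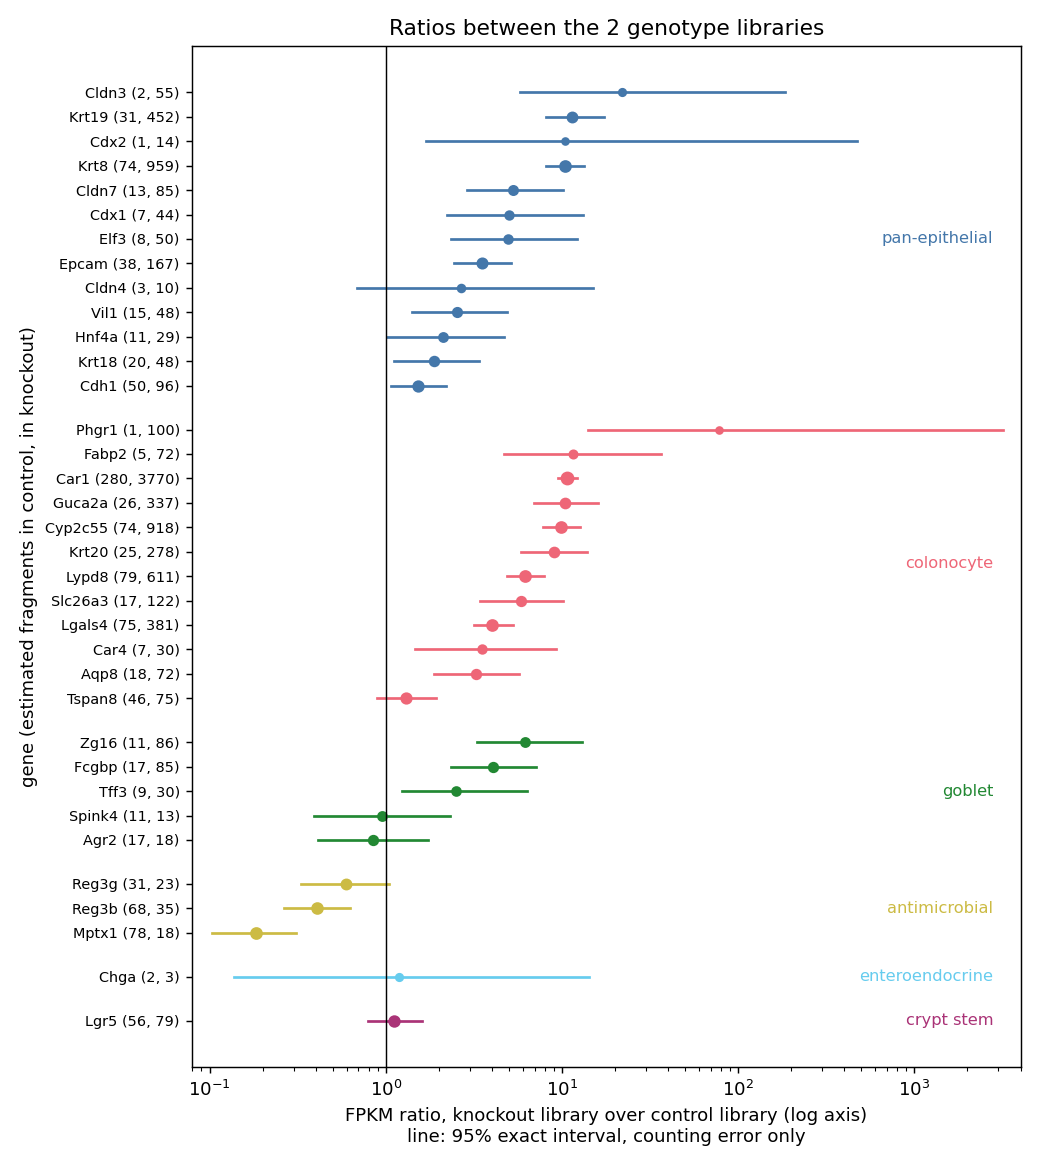
FPKM ratio of the knockout library over the control library (x axis, log scale) for the 35 members with a value above 0 in both libraries and a fragment estimate, with 95% exact intervals for counting error as lines. Estimated fragments in the control and the knockout library stand in brackets after each gene, larger points rest on more fragments, and 1 library stands behind each genotype.

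Grouped by the size of the ratio, 7 members lay between 9 and 12: Krt8, Krt19, Cdx2, Car1, Guca2a, Fabp2 and Cyp2c55. Another 6 lay between 5 and 9, 10 between 2 and 5, and 6 between 1 and 2. Cldn3 and Phgr1 lay above 12, each on 1 or 2 fragments in the control library, and 5 members lay below 1. The 3340 listed genes at 0 in the control library had no ratio. Among the rest, 9 had a ratio of at least 9 and a level of at least 10 FPKM in the knockout library. Of these 9, 7 are members, with Phgr1 included and Cdx2, at 1.06 FPKM, left out. The others were Ccl21a and Lgals6. These bounds were chosen after the values were seen, and the list with earlier results of these data known, so this count is no test.

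The goblet genes did not share 1 direction. Of the 6, 4 were higher and 2 lower in the knockout library. Zg16 and Tff3 were at least 2-fold higher on the log2(FPKM + 1) scale, and the median log2 difference was 0.55. Their summed level was 29.5 FPKM in the control library and 66.01 FPKM in the knockout. Zg16, a secreted lectin of the mucus layer, stood at 5.17 and 31.9 FPKM, a ratio of 6.17 (3.32 to 13.0). Fcgbp, a large protein bound within mucus, stood at 0.436 and 1.76 FPKM, a ratio of 4.04 (2.35 to 7.16). Tff3, the trefoil peptide of goblet cells, stood at 6.50 and 16.2 FPKM, a ratio of 2.49 (1.23 to 6.36). The other goblet genes showed no difference beyond counting error where an interval could be made. Spink4, a secreted protease inhibitor of the Kazal type, stood at 11.1 and 10.6 FPKM, a ratio of 0.958 (0.389 to 2.32). Agr2, a disulfide isomerase needed to fold mucin, stood at 5.81 and 4.92 FPKM, a ratio of 0.848 (0.410 to 1.74). Muc2, the mucin that forms the colon's mucus gel, stood at 0.456 and 0.631 FPKM, with no fragment estimate.

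The antimicrobial genes stood the other way from the colonocyte genes, with 3 of 4 lower in the knockout library and a median log2 difference of -0.95. Their summed level was 60.8 FPKM in the control library and 22.2 FPKM in the knockout. Mptx1, a mucosal pentraxin, stood at 26.2 and 4.83 FPKM, a ratio of 0.184 (0.104 to 0.310, about 78 and 18 fragments). Summed with its relative Mptx2, which stood at 1.24 and 1.32 FPKM, the ratio was 0.224. Reg3b and Reg3g encode secreted C-type lectins that act on bacteria, and they lie near each other on chromosome 6. Reg3b stood at 23.6 and 9.57 FPKM, a ratio of 0.405 (0.265 to 0.626, about 68 and 35 fragments). Reg3g stood at 10.97 and 6.49 FPKM, a ratio of 0.592 whose interval, 0.329 to 1.05, included 1. Because reads of these close relatives could be divided in either way, their sum was taken too, and it was 34.6 FPKM in the control library and 16.1 FPKM in the knockout.

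Retnlb, a resistin-like protein secreted by goblet cells, was listed at 0 in the control library, which allows up to 1.22 FPKM at 3 fragments, and at 1.31 FPKM (about 4 fragments) in the knockout library. It counts among the 21 members at least 2-fold higher because of the pseudocount of 1 FPKM, and no fold is given for it. Its relative Retnla stood at 12.9 and 72.5 FPKM. Goblet and antimicrobial genes summed to 90.3 FPKM in the control library and 88.2 FPKM in the knockout, beside the colonocyte sums of 126.1 and 1107 FPKM. That joint sum hides opposite directions. The goblet sum was higher in the knockout library (29.5 and 66.01 FPKM) and the antimicrobial sum lower (60.8 and 22.2 FPKM).

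The enteroendocrine and crypt stem cell classes had 1 gene each, and both intervals included 1. Chga, a granule protein of enteroendocrine cells, stood at 0.237 and 0.284 FPKM, about 2 and 3 fragments, and its interval ran from 0.137 to 14.3. Lgr5, the receptor that marks crypt stem cells, stood at 2.51 and 2.81 FPKM, a ratio of 1.12 with an interval of 0.788 to 1.61 over about 56 and 79 fragments.

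Upstream sequences are shown for 5 members that stand for the directions above: Krt20 and Cyp2c55 for colonocyte genes higher in the knockout library, Epcam for the gate, and Reg3g and Mptx1 for antimicrobial genes lower there. The 250 bases before the start come from RefSeq (GRCm38.p6), in which 28 of the 37 members matched an entry, the others being Lgr5, Car1, Retnlb, Krt19, Tff3, Cdh1, Zg16, Spink4 and Cdx1. Sequences run 5′ to 3′ on the strand of the gene: Krt20 chr11:99438154-99438403 (minus), Cyp2c55 chr19:39006769-39007018 (plus), Epcam chr17:87635729-87635978 (plus), Reg3g chr6:78468875-78469124 (minus) and Mptx1 chr1:174330268-174330517 (plus). Capitals mark the CDX motif TTTATGG in Epcam and the TATA motif TATAAAA in the others, and in Epcam and Mptx1 the motif reads on the opposite strand.
Krt20: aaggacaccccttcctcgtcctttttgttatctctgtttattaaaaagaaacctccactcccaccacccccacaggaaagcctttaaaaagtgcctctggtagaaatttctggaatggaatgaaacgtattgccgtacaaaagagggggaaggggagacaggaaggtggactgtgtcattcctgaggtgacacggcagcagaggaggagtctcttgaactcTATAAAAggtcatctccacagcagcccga
Cyp2c55: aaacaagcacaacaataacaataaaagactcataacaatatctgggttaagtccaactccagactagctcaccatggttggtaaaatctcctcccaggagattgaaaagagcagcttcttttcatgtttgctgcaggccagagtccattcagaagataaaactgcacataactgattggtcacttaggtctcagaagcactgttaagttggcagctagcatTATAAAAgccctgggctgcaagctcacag
Epcam: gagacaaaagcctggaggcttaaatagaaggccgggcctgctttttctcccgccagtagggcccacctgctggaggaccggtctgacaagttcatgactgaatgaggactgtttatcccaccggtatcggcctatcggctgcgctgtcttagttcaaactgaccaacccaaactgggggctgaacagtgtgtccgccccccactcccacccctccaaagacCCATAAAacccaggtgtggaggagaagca
Reg3g: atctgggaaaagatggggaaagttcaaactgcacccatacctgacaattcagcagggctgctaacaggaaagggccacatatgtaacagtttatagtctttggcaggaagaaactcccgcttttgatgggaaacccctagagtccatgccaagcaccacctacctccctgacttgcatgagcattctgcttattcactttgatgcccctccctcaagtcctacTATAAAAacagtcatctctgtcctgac
Mptx1: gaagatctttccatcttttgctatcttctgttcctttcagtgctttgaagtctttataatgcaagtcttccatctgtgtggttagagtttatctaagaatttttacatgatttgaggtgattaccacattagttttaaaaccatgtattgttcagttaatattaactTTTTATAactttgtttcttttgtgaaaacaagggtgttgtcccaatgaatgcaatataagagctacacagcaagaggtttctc

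Motifs were searched on both strands of these 250 bases. Members were counted by gene and the share over all by promoter entry, so the units differ. The motif of Cdx factors, TTTATGG, was in 2 of the 28 members (Agr2 and Epcam) and in 2.43% of 32851 promoters. The Hnf4a motif CAAAGTCCA was in none of the 28 and in 0.384% of promoters. TATAAAA, which was added after the sequences were seen, was in 5 of the 28 members (Krt20, Cyp2c55, Mptx1, Reg3b and Reg3g) and in 4.98% of promoters. It began 29 bases before the start in Krt20 and Cyp2c55, 27 in Reg3g and 83 in Mptx1. Krt20 and Cyp2c55 were higher in the knockout library while Mptx1, Reg3b and Reg3g were lower, so genes with this motif stood in both directions. A match describes letters in a window and says nothing on which factor bound there.

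Other epithelial genes, taken from fixed lists of the same classes, were counted in the same way, on the log2(FPKM + 1) scale. Of 132 such genes 129 were listed, and 12 passed 2-fold upwards and 2 downwards in the knockout library, with a median log2 difference of 0.15. That scale damps differences of low genes. By FPKM ratio alone, Axin2 (crypt list) stood at 3.03 and Spdef (goblet list) at 0.20, and neither passed. The colonocyte list had 7 of 27 at least 2-fold higher and a median of 0.59. Ceacam1, an adhesion protein, stood at 5.99 and 31.3 FPKM. The pan-epithelial list had 4 of 26 at least 2-fold higher and a median of 0.32, with Cdh17, the liver-intestine cadherin, at 1.04 and 7.69 FPKM. Both lists had medians of the same sign as the members of their class, whereas the goblet and antimicrobial lists did not. Of 15 goblet genes on the list, 3 were higher and 10 lower in the knockout library, none by 2-fold, with a median log2 difference of -0.16 where the 6 members had 0.55. Of 13 antimicrobial genes on the list, 7 were higher and 5 lower, 1 in each direction by at least 2-fold, with a median of 0.05 where the 4 members had -0.95. The summed level of that list was 22.1 FPKM in the control library and 35.3 FPKM in the knockout. No gene passed 2-fold among 14 crypt (median 0.24), 14 enteroendocrine (median -0.09) and 9 tuft cell genes (median -0.04). Of 12 small intestine genes (median -0.06) none was at least 2-fold higher and 1 was at least 2-fold lower. This was Fabp1, a fatty acid carrier, at 2.14 and 0.569 FPKM, about 4 and 1 fragments. Its ratio interval of 0.00405 to 2.01 included 1. On the antimicrobial list Lyz1, a lysozyme, stood at 9.04 and 18.9 FPKM and Pigr, which carries antibodies across the epithelium, at 2.40 and 7.39 FPKM. Many genes of these lists are also made by mesenchymal cells, such as Smoc2 at 107.7 and 138.0 FPKM, so their levels do not measure epithelium alone.

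Markers of other cell types were read from the same libraries, with 2-fold again counted on the log2(FPKM + 1) scale. That scale damps differences of low genes. By FPKM ratio alone, the leukocyte marker Adgre1 stood at 2.77 (1.66 to 5.08) and the endothelial marker Vwf at 0.330 (0.199 to 0.550). The 16 leukocyte markers summed to 249.0 FPKM in the control library and 296.3 FPKM in the knockout, none was at least 2-fold different, and none was at 0. The 12 endothelial markers summed to 76.7 and 49.6 FPKM, 8 of 12 were lower in the knockout library, 3 of them at least 2-fold, and none was at 0. The 10 mesenchymal markers summed to 14380 and 16020 FPKM, and none was at least 2-fold different, nor was any of 6 smooth muscle or 6 glial and neuronal markers. The part of these cell types in the epithelial differences was not tested.

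In the 6 libraries with GABA and taurine the same 37 genes were far lower in level, although those libraries were deeper. Their summed level was 4.79 to 13.4 FPKM per library. These libraries may have been normalised separately from the genotype libraries, so the levels are set side by side without a test. Leukocyte markers summed to 4.98 to 17.4 FPKM and endothelial markers to 14.4 to 21.2 FPKM there, also below both genotype libraries. The mesenchymal markers were lower too, at 2408 to 2605 FPKM against 14380 and 16020 FPKM. So were glial and neuronal markers, at 1.74 to 3.13 FPKM against 8.39 and 5.86 FPKM. Smooth muscle markers were higher, at 960.5 to 1058 FPKM against 610.5 and 735.7 FPKM.

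Of the 37 members, 4 were above 0 in all 6 libraries: Krt8, Krt18, Krt19 and Lgals4. Another 7 were listed at 0 in all 6: Cdx1, Fabp2, Aqp8, Fcgbp, Retnlb, Mptx1 and Chga. At 3 fragments, a value of 0 allows between 0.0188 FPKM and 0.355 FPKM per library for these 7 genes. Of all 24346 listed genes, 13211 were above 0 in all 6 libraries and 7227 were at 0 in all 6. Per library, 9372 to 9528 listed genes were at 0, against 3340 in the control and 3472 in the knockout library. Car1, the highest member in the genotype libraries, was at 0.541, 0.0541 and 0.410 FPKM at 0 h and at 1.19, 0 and 0.179 FPKM at 6 h, with overlap between the groups. Mptx1, at 26.2 FPKM in the control library, was among the genes at 0. Reg3b reached 3.401 FPKM in 1 library at 6 h, about 36 fragments, and was at 0.837 FPKM or less in the other 5. By class, summed levels per library were 1.57 to 6.12 FPKM for pan-epithelial, 0.751 to 3.98 FPKM for colonocyte, 0 to 0.550 FPKM for goblet and 0.0903 to 4.18 FPKM for antimicrobial genes.

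**Figure D4:**
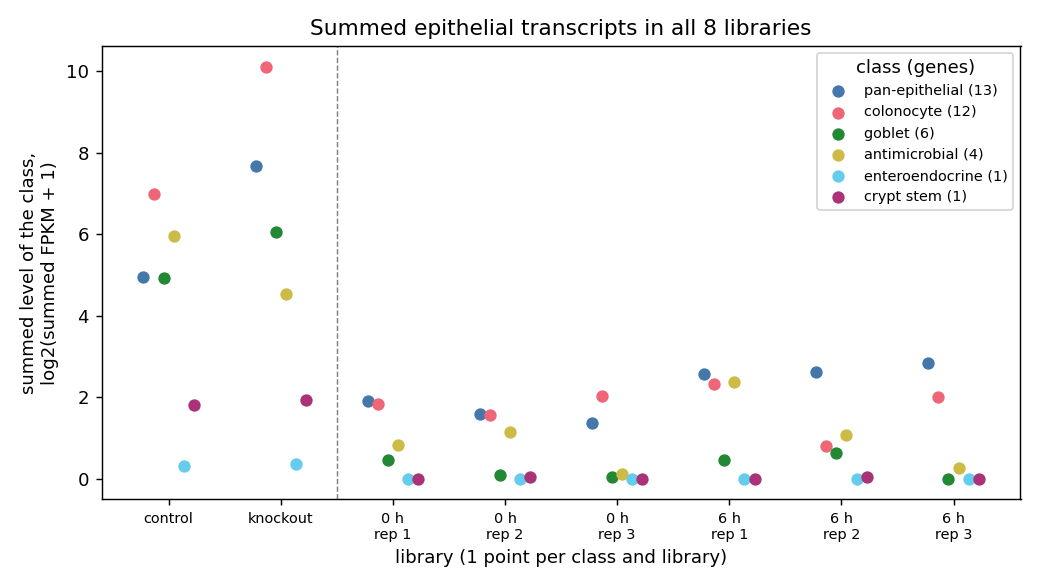
Summed level of each epithelial class in each of the 8 libraries, log2(summed FPKM + 1) on the y axis, 1 point per class and library, with the genotype libraries left of the dashed line. Colonocyte genes lead in both genotype libraries, while in the 6 libraries with GABA and taurine no class exceeds 6.12 FPKM.

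The time comparison asks how transcripts of cells with GABA and taurine stood at 6 h against 0 h. Krt8 was the 1 member of 2 tested that was called, higher at 6 h. Its 6 h values alone took Krt8 past the mean of 1 FPKM needed for testing. It was at 0.271, 0.729 and 0.188 FPKM at 0 h (about 10, 24 and 7 fragments) and at 2.12, 1.75 and 2.31 FPKM at 6 h (about 67, 59 and 69 fragments). All 3 libraries at 6 h lay above all 3 at 0 h. Its log2 change on the log2(FPKM + 1) scale was 1.15 (SE 0.20), with an adjusted p of 0.0319 by limma over 10910 genes. Since its 0 h values lay below the pseudocount of 1 FPKM, this scale understates the change, which was 2.27 with a pseudocount of 0.1 (adjusted p = 0.0384 by limma). The call was lost when any 1 library other than 0 h replicate 3 was left out, with adjusted p between 0.0802 and 0.144. It was also lost with the replicate number as a block (adjusted p = 0.0803) and with the filter on low values lowered to a mean of 0.1 FPKM (adjusted p = 0.0508 by limma) or left out (adjusted p = 0.244). In these settings, and without 0 h replicate 3, the log2 change stayed between 1.04 and 1.31.

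Only Krt8 and Lgals4 had a mean of at least 1 FPKM and entered that test, in which 0.55% of 10910 genes were called in either direction. The means of Krt8 were 0.396 FPKM at 0 h and 2.06 FPKM at 6 h, so its entry depended on the 6 h libraries. Lgals4 was at 0.937, 0.773 and 1.70 FPKM at 0 h and at 1.85, 0.586 and 1.90 FPKM at 6 h, and the groups overlapped. Its log2 change was 0.17 (SE 0.26), with an adjusted p of 0.884 by limma.

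The members under the filter are given by their values. Krt18, the partner of Krt8, was at 0.806, 0.355 and 0.252 FPKM at 0 h and at 0.977, 0.995 and 2.15 FPKM at 6 h. Epcam was at 0.130, 0 and 0.135 FPKM at 0 h and at 0.480, 0.195 and 0.158 FPKM at 6 h, from 16 fragments at most. Both had every 6 h library above every 0 h library, as had Krt8. These 3 of 37 members compare with 4.23% of all listed genes, and no member had every 6 h library below every 0 h library, where 4.43% of all listed genes did. With the filter lowered to a mean of 0.1 FPKM, Krt18 had an adjusted p of 0.383 by limma and Epcam one of 0.721. Krt19 was at 0.495, 0.408 and 0.429 FPKM at 0 h and at 0.856, 0.398 and 1.00 FPKM at 6 h, and its groups overlapped.

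The pan-epithelial sum was 2.12 ± 0.613 FPKM (SD, n = 3) at 0 h and 5.40 ± 0.646 FPKM (SD, n = 3) at 6 h, and the libraries did not overlap. At 6 h most of it was Krt8 and Krt18, with means of 2.06 ± 0.285 FPKM and 1.37 ± 0.675 FPKM (SD, n = 3). At 0 h their means were 0.396 ± 0.291 FPKM and 0.471 ± 0.295 FPKM (SD, n = 3). The colonocyte sum was 2.53 ± 0.568 FPKM at 0 h and 2.58 ± 1.66 FPKM at 6 h (SD, n = 3), with overlap. Over all 37 members the median log2 change was 0, with 18 higher, 12 lower and 7 at 0 in all 6 libraries. The median thus fell on a gene at 0 throughout and does not measure a lack of change. Leukocyte marker sums overlapped between the times, at 9.81 ± 6.66 and 11.4 ± 2.98 FPKM (SD, n = 3), and endothelial marker sums did too, at 16.4 ± 2.69 and 19.6 ± 1.52 FPKM (SD, n = 3). The sums of the 10 mesenchymal markers also overlapped, at 2481 ± 82.4 and 2567 ± 35.3 FPKM (SD, n = 3). Of these 10, 9 had a higher mean at 6 h, and Pdgfra, Col3a1, Dcn and Lum had every 6 h library above every 0 h library. Their log2 changes were 0.31, 0.22, 0.23 and 0.25, with adjusted p by limma from 0.0961 to 0.1501. The part of these cell types in the rise of Krt8 was not tested.

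**Figure D5:**
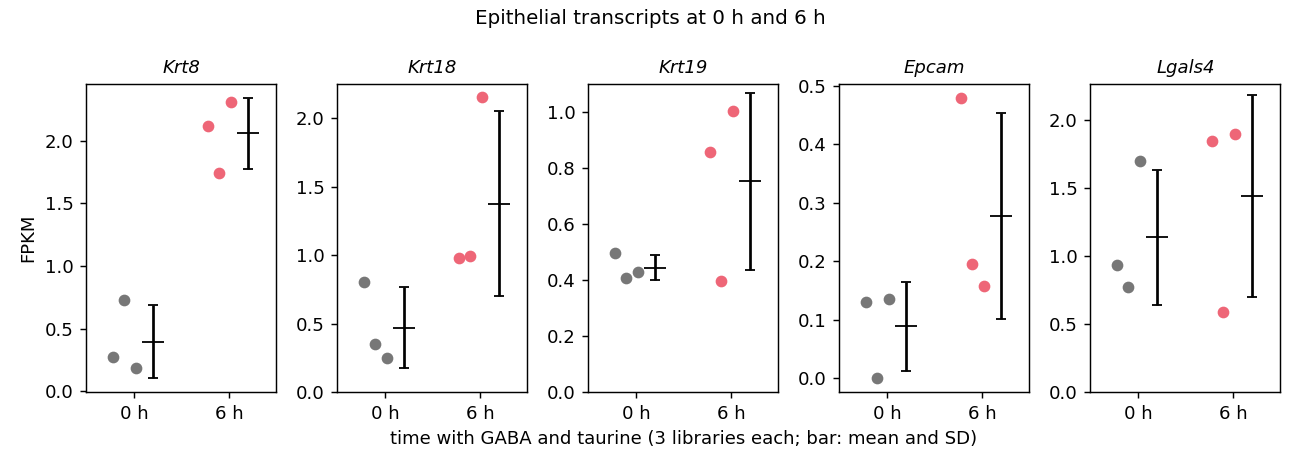
FPKM (y axis) of 5 members at 0 h and 6 h with GABA and taurine, each point 1 library (3 per time), with the mean and SD as a bar. Krt8, Krt18 and Epcam have all 6 h libraries above all 0 h libraries, and Krt19 and Lgals4 overlap.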

How the data were processed

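The authors deposited 1 table of FPKM values per library, per the file headers, each with the same 24346 gene symbols. Total RNA was amplified as full-length cDNA with SMART-Seq HT and made into libraries with Nextera XT, per the labels' protocols. This chemistry does not mark strand, so overlapping antisense genes cannot be told apart. Cuffdiff 2.2.1, TopHat2 2.1.1, SAMtools 0.1.18, Bowtie2 2.2.8 and the build mm10 are named, per the submitters' processing notes, without role or order. The sources used here do not state the annotation, how shared reads were assigned or whether libraries were scaled. As FPKM are not read counts, no count model was run.

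The members and all lists were chosen with earlier results of these data known. Named genes were all members, the 3 highest genes of each other epithelial list, of which some are printed, the genes of the gate, and close relatives of members. Genotype differences are log2 ratios of FPKM + 1, with 2-fold counted on that scale. For time, limma 3.58.1 (R 4.3.3) with a trended prior was run on log2(FPKM + 1) over the 10910 genes that averaged 1 FPKM or more. P-values were adjusted by Benjamini-Hochberg over all of them at a threshold of 0.05. Fragments per library were estimated from the steps of FPKM in 4259 genes with 1 GENCODE transcript of 251 to 5999 bases, with 200 bases taken off each length, and scaling by the authors would enter them. Of 47 member values between 0.5 and 3.5 estimated fragments, 87.2% lay within 0.15 of a whole number. The scripts were tested on simulated data. Alternatives were a pseudocount of 0.1, median scaling, other filters, a replicate block and leaving out each library.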

Additional observations from a re-analysis of the deposited data

How the results depend on the processing

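The count of members at least 2-fold higher in the knockout library was 21, and 25 with a pseudocount of 0.1, 21 with median scaling, and 20 either with a mean of at least 1 FPKM or, an alternative chosen after seeing the data, with at least 10 estimated fragments. The count at least 2-fold lower was 2 in each. The median log2 difference of all members, 1.28, became 1.8, 1.2, 1.54 and 1.47 under these alternatives in that order. Pan-epithelial genes (1.52) moved to 2.18, 1.45 and 1.57 under the first 3, and colonocyte genes (2.67) to 2.87 with the pseudocount and 2.58 with scaling. Goblet genes (0.553) moved to 0.85, 0.509, 0.943 and 0.943, and antimicrobial genes (-0.947) to -1.02, -1.03, -1.22 and -1.22. None of these 4 classes changed direction, and the classes with 1 gene were not run. The higher medians under filters come from fewer genes. For time, the count of members past the threshold was 1 as reported, with a pseudocount of 0.1 and with scaling, and 0 without a filter and with a filter at 0.1 FPKM. Leaving out each library gave 0 to 1, and the median change of all members then ran from 0 to 0.0267. By limma at an unadjusted p under 0.05, members numbered 1 as reported, 2 with either lower filter and 1 to 2 with a library left out. With the replicate number as a block the count was 0, with 1 member at an unadjusted p under 0.05, and over all genes 14 were called higher and 9 lower, against 26 and 34 without the block. Same-numbered libraries did not deviate together (correlations -0.044, 0.0126 and -0.0278), which cannot tell whether they share an animal or a preparation. Genes resting on 3 or fewer fragments in the control library, 6 of the members, have ratios that depth leaves poorly known.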
